A study of Mus musculus with 31 samples.

Results

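The 10 genes described here make, sense and break down prostaglandin E2. They are Ptgs1, Ptgs2, Ptges, Ptges2, Ptges3, Ptger1, Ptger2, Ptger3, Ptger4 and Hpgd. They are picked by a rule on gene names that itself uses no measured value, but the members were chosen with earlier results of these data known. Each was found by its symbol among the 39017 genes of the deposited count table. All 10 passed the filter on low counts in every fit. Bulk messenger RNA of mouse breast tumours was sequenced in 31 libraries. Per the labels, the tumours were orthotopic and grown in syngeneic mice, in a model titled 4T1 and a model titled MT, all with the genotype WT. In each model the control arm received saline and PBS, the phenformin arm saline and phenformin, the poly I:C arm poly I:C and PBS, and the combination arm poly I:C and phenformin. Phenformin is a biguanide that inhibits mitochondrial complex I, and poly I:C imitates viral double-stranded RNA and is sensed by Toll-like receptor 3. Every group held 4 libraries, except 4T1 phenformin with 3 (replicates 1, 2 and 4). Doses, times and ages are not given in the sources used here. RNA came from cell pellets or flash-frozen tissue. Nothing in the labels says that replicates are separate animals, so p-values measure only the spread between these libraries, which may be technical.

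Some features of the libraries bear on every result below. The design text pairs MT with FVB mice and 4T1 with BALBc mice, but the sample tags give FVB and the cell line MT4788 to the libraries titled 4T1, and BALBc and 4T1-537 to those titled MT. Groups follow the titles. CPM below is the count scaled to library size, with TMM factors computed over all 31 libraries. The level of H2-Ea-ps, an MHC class II gene that some mouse strains do not transcribe, was 222 to 1011 CPM under the title 4T1 and 5.42 to 50.9 CPM under the title MT. Total counts per library ran from 12160110 to 19849915. In MT, 6 libraries (control replicates 1 to 3 and phenformin replicates 1 to 3) had Sox10, a neural crest and mammary progenitor factor, at 33.5 to 218 CPM, against 0.671 to 3.06 CPM in the other 10. Krt5, a basal keratin, was at 21.4 to 37.5 CPM in 5 of these 6 libraries, and at 330 to 2452 CPM in the remaining 11 MT libraries. Igkc, an immunoglobulin light chain of B and plasma cells, was at 2087 to 8738 CPM in 4 MT libraries (phenformin 4, poly I:C 3, combination 1 and 4). In 4T1, Acta1, a skeletal muscle actin, was at 18.2 to 244 CPM in 5 libraries of the treated arms and at most 5.31 CPM in the other 10.

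Prostaglandin E2 is a lipid made from arachidonic acid. A cyclooxygenase (Ptgs1, mostly constitutive, or Ptgs2, induced by inflammation) makes prostaglandin H2, and a synthase (Ptges, Ptges2 or Ptges3) turns it into prostaglandin E2. The product leaves the cell and acts on G protein-coupled receptors named EP1 to EP4 (Ptger1 to Ptger4): EP2 and EP4 raise cyclic AMP, EP3 mainly lowers it and EP1 raises calcium. Hpgd inactivates prostaglandin E2. In tumours the pathway is known for its effects on myeloid and T cells.

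RefSeq promoters of the GRCm38.p6 build were found for 9 of the 10 genes, all but Ptger1. The stretches below run from 250 bases before the start site through the first 30 bases of the transcript, 5′ to 3′. Those of Ptgs2 and Ptgs1 are shown because these genes moved in opposite directions in 4T1, and those of Ptges2 and Ptges3 because both genes fell in MT. Capitals mark matches to 4 motifs, each searched on both strands. They are the C/EBP site TTGCGCAA, the E-box spelled CACGTG and the TATA box spelled TATAAA. The remaining motif is the core of the cyclic AMP response element, TGACG, which reads CGTCA when it lies on the opposite strand.
Ptgs2 (chr1:150099781-150100060, plus strand): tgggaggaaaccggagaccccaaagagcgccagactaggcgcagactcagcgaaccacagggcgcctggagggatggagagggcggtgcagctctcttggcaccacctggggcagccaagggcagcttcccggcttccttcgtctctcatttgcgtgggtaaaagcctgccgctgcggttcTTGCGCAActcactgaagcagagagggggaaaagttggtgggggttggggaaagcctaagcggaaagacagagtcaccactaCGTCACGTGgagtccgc
Ptgs1 (chr2:36230176-36230455, plus strand): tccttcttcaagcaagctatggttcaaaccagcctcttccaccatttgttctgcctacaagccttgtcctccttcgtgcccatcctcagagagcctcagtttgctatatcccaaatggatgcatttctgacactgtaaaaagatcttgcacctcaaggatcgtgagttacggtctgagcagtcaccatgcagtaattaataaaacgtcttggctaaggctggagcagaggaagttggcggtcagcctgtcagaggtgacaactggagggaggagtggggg
Ptges2 (chr2:32395640-32395919, plus strand): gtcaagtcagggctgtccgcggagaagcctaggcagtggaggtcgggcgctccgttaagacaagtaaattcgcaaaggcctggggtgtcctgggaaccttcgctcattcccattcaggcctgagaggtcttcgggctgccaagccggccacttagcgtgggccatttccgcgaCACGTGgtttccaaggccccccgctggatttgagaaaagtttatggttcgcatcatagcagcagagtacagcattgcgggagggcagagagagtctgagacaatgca
Ptges3 (chr10:128058732-128059011, plus strand): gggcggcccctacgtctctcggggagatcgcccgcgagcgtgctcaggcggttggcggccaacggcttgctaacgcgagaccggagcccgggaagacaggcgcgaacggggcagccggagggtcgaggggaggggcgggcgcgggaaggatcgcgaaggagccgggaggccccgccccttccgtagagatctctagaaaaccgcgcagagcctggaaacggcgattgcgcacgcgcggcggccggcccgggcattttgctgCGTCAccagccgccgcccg

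The Ptgs2 stretch held the C/EBP site from 69 to 62 bases before the start site. It also held the response element core from 13 bases after the start, overlapping an E-box from 16 bases after it. The C/EBP letters occurred in 0.183% of the 32851 mouse promoters of the same table, the E-box in 7.15%, the response element core in 20.8% and the TATA box in 13.6%. GGGCGG, a GC box found in 35.7% of promoters and not capitalised here, also lay in the Ptgs2 and Ptges3 stretches. Ptges2 held 1 E-box, from 77 to 72 bases before its start, and Ptges3 held 1 response element core. None of the 4 capitalised motifs was in the Ptgs1 stretch. The NF-kB consensus, found in 8.46% of promoters, matched the Ptges3 stretch and gave no match in the Ptgs2 window. These matches describe letters only.

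Levels between genes were compared per length, as CPM per kilobase of exon. Ptges3, a co-chaperone of Hsp90 also called p23 with reported synthase activity, was the most abundant, with a median of 83.6 CPM per kilobase over the 15 libraries titled 4T1 and 108 over the 16 titled MT. In 4T1 the order of medians went on with Ptgs2 (23.3), Ptgs1 (15.6), Ptger1 (11.9), Ptges (10.3), Ptges2 (1.88), Ptger4 (1.74), Ptger2 (0.476), Hpgd (0.369) and Ptger3 (0.208). In MT it went on with Ptges (14.9), Ptgs2 (9.70), Ptgs1 (5.94), Ptger1 (5.66), Ptges2 (3.49), Hpgd (2.76), Ptger4 (2.33), Ptger2 (0.510) and Ptger3 (0.210). Neighbours in these orders mostly overlapped: in 4T1 the per-kilobase ranges of Ptgs2 (10.1 to 86.3), Ptgs1 (7.11 to 23.0), Ptger1 (8.72 to 13.7) and Ptges (6.72 to 19.1) overlapped each other, as did those of Ptges2 (1.66 to 2.55) and Ptger4 (1.04 to 2.89). Ptges3 (71.3 to 93.5) overlapped Ptgs2 through 1 library, and no other gene. Ptger3 was the sparsest gene, with 2 to 49 counts per library, and Hpgd had 1 to 210.

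The strand setting of the counting is not given in the sources used here, so reads from genes that overlap on opposite strands cannot be told apart. Every Ptger1 value below is uncertain for this reason. Of the Ptger4 exon bases 15.3% overlap a pseudogene on the opposite strand, and of those of Ptger2 4.7% overlap an antisense gene.

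Poly I:C in the 4T1 model moved the cyclooxygenases in opposite directions: Ptgs2 rose and Ptgs1 fell. Ptgs2, the inducible enzyme (ENSMUSG00000032487, GRCm38 chromosome 1, 150100031 to 150108227, plus strand), was at 74.6, 81.7, 48.7 and 46.0 CPM in the 4 controls. It was at 303, 233, 395 and 103 CPM in poly I:C replicates 1 to 4. All 4 treated libraries lay above all controls, where the groups did not overlap for 12.7% of all genes tested. Replicate 4 was well below the other treated libraries. The mean went from 62.7 ± 18.0 to 259 ± 123 CPM (SD, n = 4 each), a log2 fold change of 2.06 ± 0.38 (SE, edgeR adjusted p = 0.0112).

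Ptgs1, the constitutive enzyme (ENSMUSG00000047250, chromosome 2, 36230426 to 36252272, plus strand), measured 80.8, 83.7, 65.9 and 64.8 CPM in the 4T1 controls and 37.5, 40.1, 27.6 and 56.9 CPM with poly I:C. The groups did not overlap, as for 12.7% of all genes tested, and replicate 4 was again nearest to the controls. Its log2 fold change was -0.85 ± 0.19 (adjusted p = 0.0243). The Ptgs2 to Ptgs1 ratio, 0.71 to 0.98 in the controls, was 8.07, 5.80, 14.3 and 1.81 in poly I:C replicates 1 to 4. These 2 of 10 genes were the ones called, where 6.32% of the 17445 genes tested were called. The Ptgs2 call held in each of the 8 fits with 1 library left out. Leaving out control 2, poly I:C 1 or poly I:C 2 ended the Ptgs1 call, with an adjusted p of 0.0622, 0.05002 and 0.0666 in turn.

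**Figure D1:**
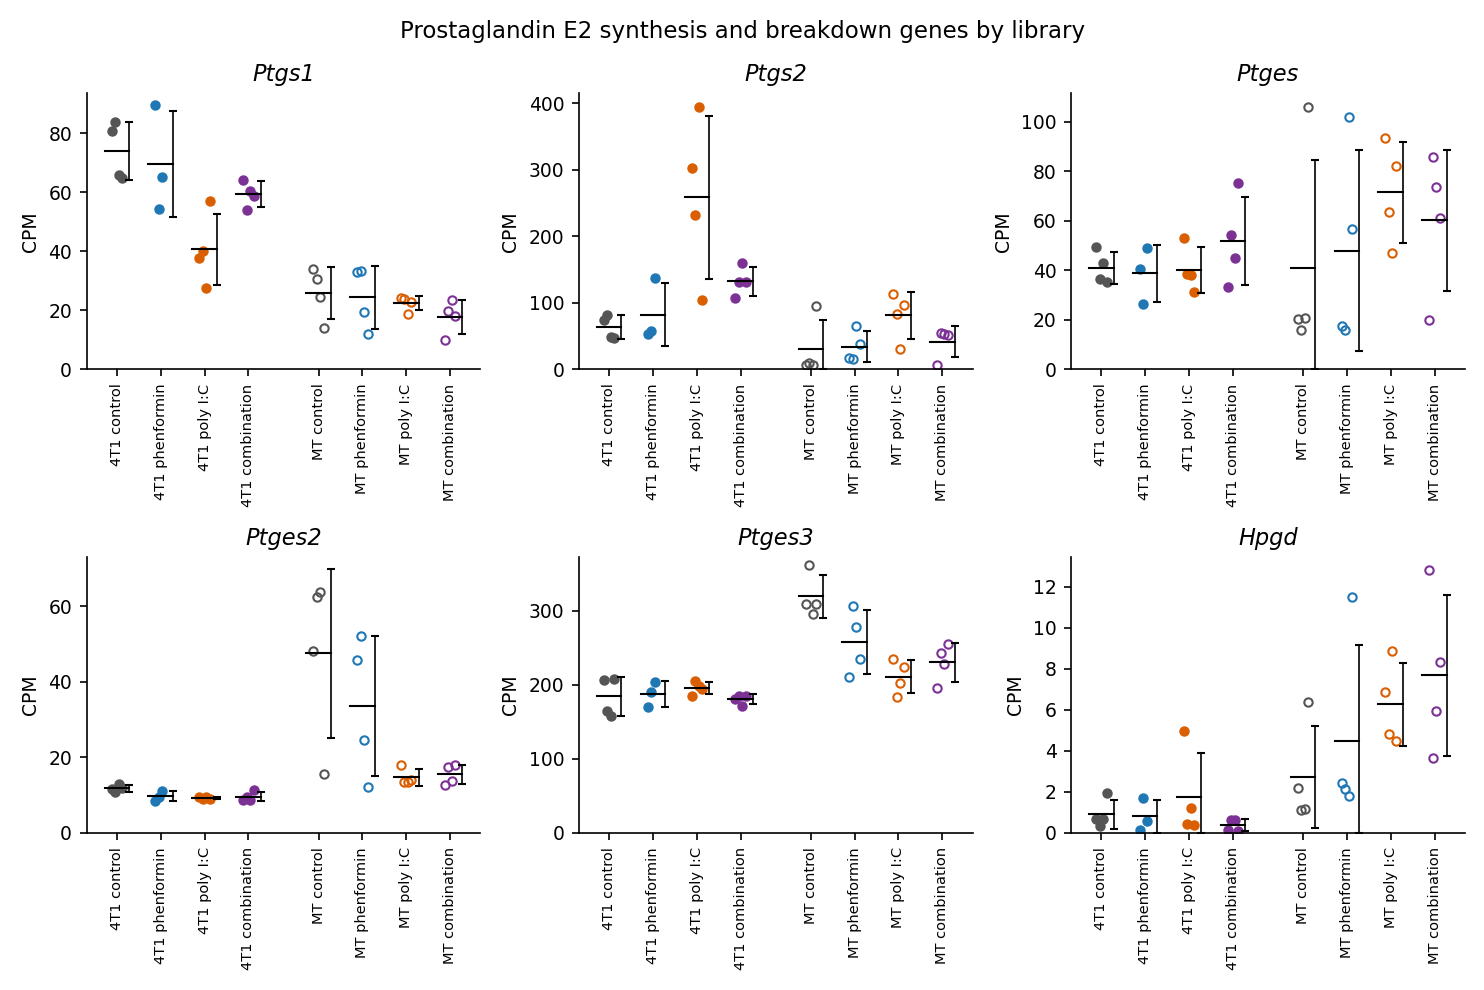
CPM of the cyclooxygenases, the synthases and Hpgd in every library, by model and arm (points, filled for 4T1 and open for MT), with the group mean (line) and SD (bar, drawn down to no lower than 0). Ptgs2 in the 4T1 poly I:C libraries runs from 103 to 395 CPM above controls at 46.0 to 81.7 CPM, and the MT controls split for Ptgs2, Ptges and Ptges2.

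Cell type markers moved in the same 4T1 libraries. The summed CPM of 12 fibroblast markers was 3659 to 5575 in the controls, 7395 to 14230 in poly I:C replicates 1 to 3 and 5758 in replicate 4, with 4 of the 11 tested higher by the test and Tcf21 at 0. The sum of 12 neutrophil markers was 281 to 702 in the controls, 1230 to 1497 in replicates 1 to 3 and 524 in replicate 4, with 3 of 11 higher and none at 0 in either group. Ptgs2 was lowest in that same replicate 4. Macrophage markers summed to 3269 to 4879 CPM in the controls and 1435 to 2267 CPM with poly I:C, with 5 of 12 lower and none at 0, beside the lower Ptgs1. In bulk tissue, fewer cells of a type and less RNA per cell cannot be told apart, and the part of these markers in the cyclooxygenase results was not tested. The 5 libraries high in Acta1 include poly I:C replicates 2 and 3, so leaving them out keeps only poly I:C replicates 1 and 4. The Ptgs2 log2 fold change was then 1.71 (adjusted p = 0.156) and that of Ptgs1 -0.63 (adjusted p = 0.27), with 0% of all genes called. The 3 libraries with Igkc above 100 CPM include control replicate 4 and poly I:C replicate 1. Without these 3 the values were 1.86 (adjusted p = 0.0597) and -0.87 (adjusted p = 0.0612), with 1.49% of all genes called.

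**Figure D2:**
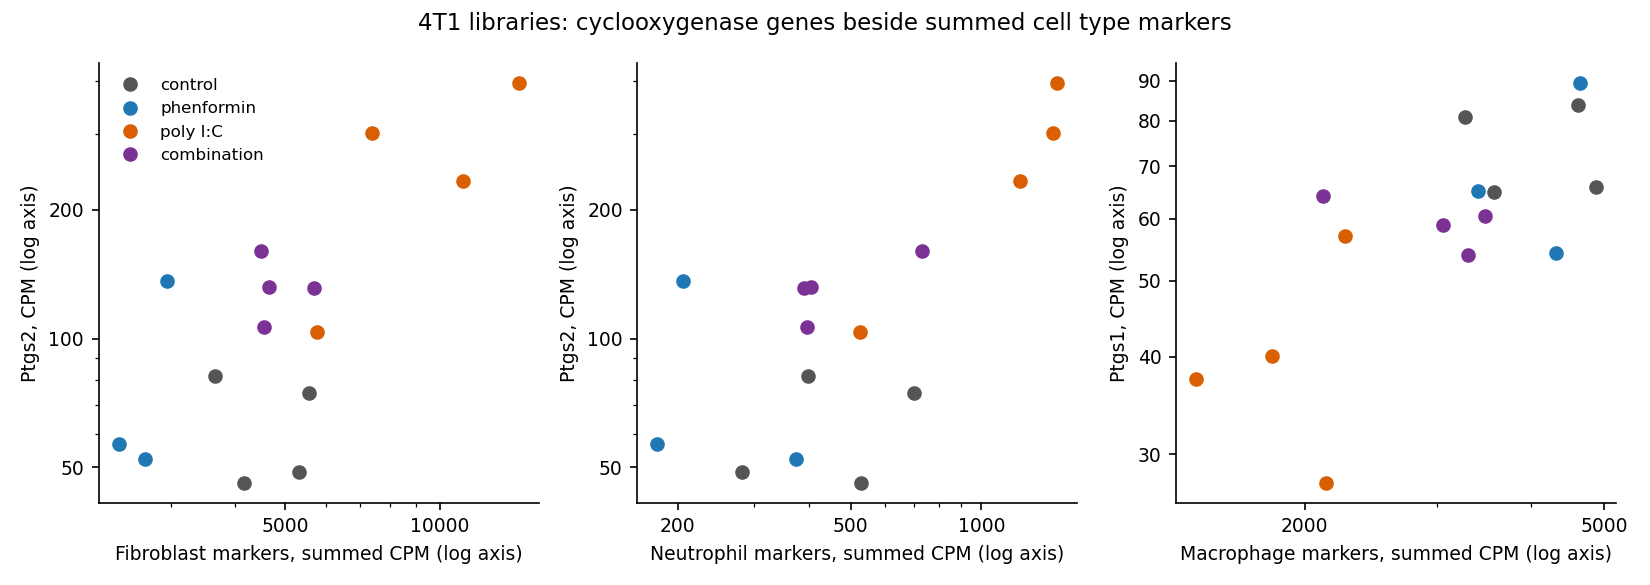
CPM of Ptgs2 or Ptgs1 (log axis) against summed CPM of fibroblast, neutrophil or macrophage markers (log axis) in the 15 libraries titled 4T1, coloured by arm. The 3 poly I:C libraries with the highest Ptgs2 (233 to 395 CPM) also have the highest fibroblast and neutrophil sums, and the 4 poly I:C libraries include the 3 lowest Ptgs1 levels.

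With phenformin alone, Ptgs2 in 4T1 measured 52.2, 56.8 and 136 CPM in replicates 1, 2 and 4, so 2 of 3 libraries lay within the control range. Ptgs1 measured 89.4, 54.3 and 65.2 CPM, on both sides of the controls. No member was called by edgeR or by DESeq2, as for all genes (0% called), and 1 had an unadjusted p below 0.05. That gene was Ptger2, which encodes the cyclic AMP-raising EP2, at 3.77, 3.60 and 2.32 CPM against 2.47, 2.13, 2.23 and 1.61 CPM in the controls (log2 fold change 0.60 ± 0.27, adjusted p = 0.471).

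In the 4T1 combination arm Ptgs2 measured 107, 131, 160 and 132 CPM, all above the controls and within the poly I:C range. Its log2 fold change against control was 1.09 ± 0.37 (adjusted p = 0.248). Against poly I:C it was -0.97 ± 0.37 (adjusted p = 0.18), with the combination libraries inside the range of the poly I:C libraries. Ptgs1, at 64.1, 53.9, 60.5 and 58.8 CPM, lay just below all 4 controls, with log2 fold changes of -0.30 ± 0.19 against control (adjusted p = 0.58) and 0.54 ± 0.19 against poly I:C (adjusted p = 0.158). The combination and control groups did not overlap for 8.59% of all genes tested. Without poly I:C replicate 4, both differences from poly I:C passed the test (Ptgs1 0.76, adjusted p = 0.0216, and Ptgs2 -1.24, adjusted p = 0.0326), where 8.1% of all genes passed. The interaction, the change with poly I:C under phenformin minus that without, was -1.35 for Ptgs2 and 0.63 for Ptgs1 (adjusted p = 0.51 and 0.529).

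With all libraries, no member was called by edgeR or DESeq2 in 4T1 for the combination against control (0% of all genes called, 2 members at unadjusted p below 0.05). The same was true against poly I:C (0.246% of all genes called, 3 members below 0.05), against phenformin (0%, 0 members) and for the interaction (0%, 2 members). Among the members below 0.05 against poly I:C was Hpgd, a low gene in 4T1. At 4.93, 0.421, 1.21 and 0.378 CPM with poly I:C and 0.131, 0.621, 0.630 and 0.0573 CPM with the combination, its log2 difference was -2.24 ± 0.94 (adjusted p = 0.215), and -0.91 without poly I:C replicate 1.

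None of the 3 synthases was called in any 4T1 comparison. Ptges, the inducible microsomal synthase, ran from 26.4 to 75.1 CPM over the 15 libraries, with group means of 40.9 ± 6.54 (control), 38.6 ± 11.4 (phenformin, n = 3), 40.1 ± 9.27 (poly I:C) and 51.9 ± 17.8 CPM (combination). Its log2 fold change with poly I:C was -0.01 ± 0.24 (adjusted p = 0.984), beside the rise of Ptgs2 in the same libraries. Ptges2, a membrane-associated synthase, was lower in all 4 poly I:C libraries (8.78 to 9.46 CPM) than in all controls (10.8 to 12.9 CPM), by -0.34 ± 0.12, and missed the threshold (adjusted p = 0.106). These groups did not overlap for 12.7% of all genes tested. Ptges3 stayed between 158 and 207 CPM in all 15 libraries.

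Receptor levels in 4T1 overlapped between arms. Ptger4, which encodes EP4, was at 11.02 to 16.1 CPM in the controls and at 14.6, 6.91, 10.2 and 8.32 CPM with poly I:C (log2 fold change -0.41 ± 0.24, adjusted p = 0.31). Ptger2 was at 1.49 to 3.77 CPM, Ptger3 at 0.131 to 2.39 CPM and Ptger1 at 47.6 to 75.0 CPM over all 15 libraries. Over the 10 members the median log2 fold change with poly I:C was -0.04, beside 0.01 for all genes tested.

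**Figure D3:**
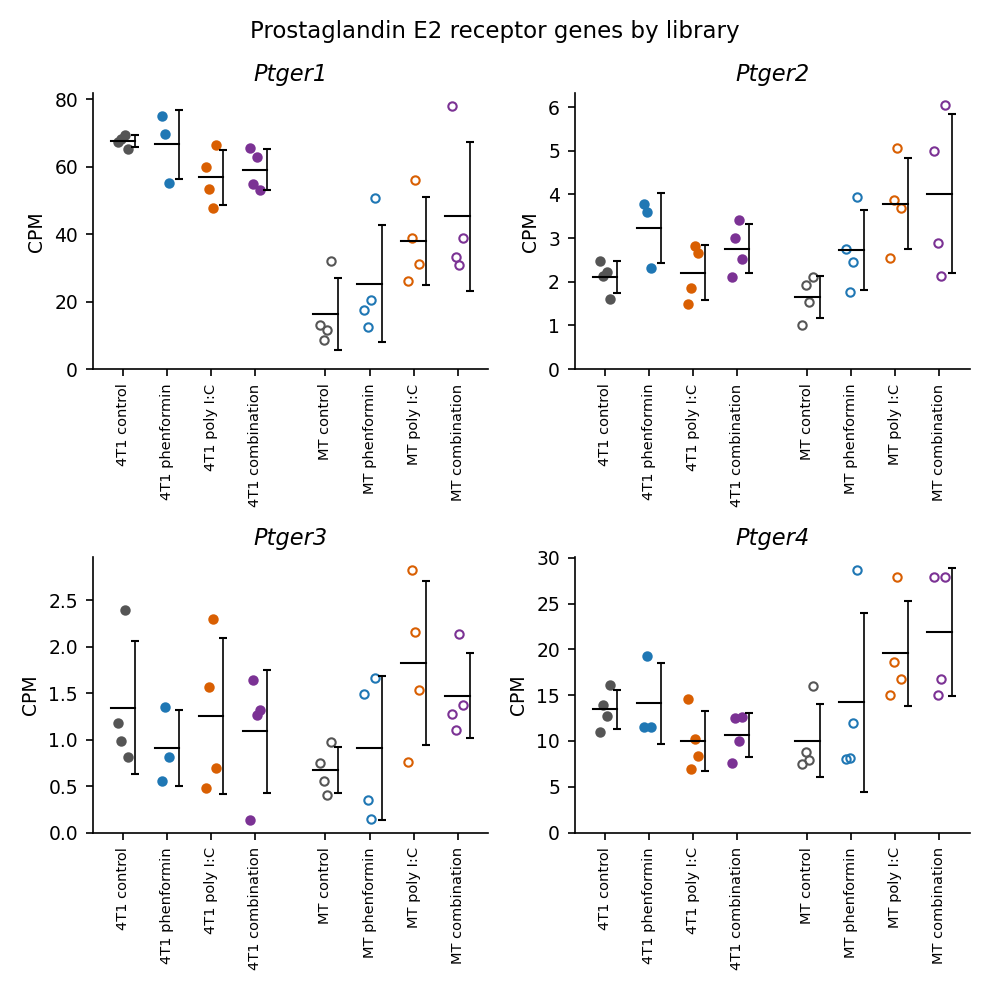
CPM of the 4 receptor genes in every library by model and arm (points, filled for 4T1 and open for MT), with the group mean (line) and SD (bar). In MT all 4 receptors have higher means with poly I:C than in the controls, while in 4T1 the libraries of the arms overlap.

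In MT the levels of Ptgs2, Ptges and Ptges2 differed within the control and phenformin arms, between the 5 libraries with low Krt5 and the others. Ptgs2 measured 6.48, 9.01 and 6.56 CPM in control replicates 1 to 3 but 95.7 CPM in control replicate 4, which had high Krt5. It measured 17.2 and 15.2 CPM in phenformin replicates 1 and 2 and 65.1 and 37.6 CPM in replicates 3 and 4. With poly I:C it was 114, 82.7, 30.4 and 96.5 CPM. The combination libraries gave 6.83, 54.4, 52.5 and 51.2 CPM, and the low one, replicate 1, had the least Krt5 of the 11 (330 CPM) and the most Igkc.

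Ptges followed the same libraries. It measured 20.1, 15.9, 20.6 and 106 CPM in control replicates 1 to 4, and 17.4, 15.9, 102 and 56.4 CPM in the phenformin libraries. It was at 93.3, 63.5, 46.9 and 82.1 CPM with poly I:C and at 20, 85.6, 73.8 and 61.0 CPM with the combination. Control replicate 4 was thus the highest MT library for Ptges and among the 3 highest for Ptgs2. Ptgs1 ran the other way in the untreated libraries, at 34.1, 30.4, 24.6 and 13.9 CPM in control replicates 1 to 4, so the Ptgs2 to Ptgs1 ratio was 0.190 to 0.296 in 3 controls and 6.88 in the fourth.

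Ptges2 (ENSMUSG00000026820, chromosome 2, 32395896 to 32405772, plus strand) had the opposite order. Its control libraries gave 48.2, 62.6, 63.8 and 15.5 CPM, and phenformin gave 45.7, 52.1, 24.6 and 11.96 CPM. It measured 18.0, 13.3, 13.3 and 13.8 CPM with poly I:C and 12.7, 17.3, 13.6 and 17.9 CPM with the combination. The 5 libraries with low Krt5 were all above 45 CPM, the other 11 all below 25 CPM, and phenformin replicate 3, with intermediate Sox10, was the highest of the 11. What these libraries differ in besides Sox10 and Krt5, and its part in the arm comparisons, was not tested.

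**Figure D4:**
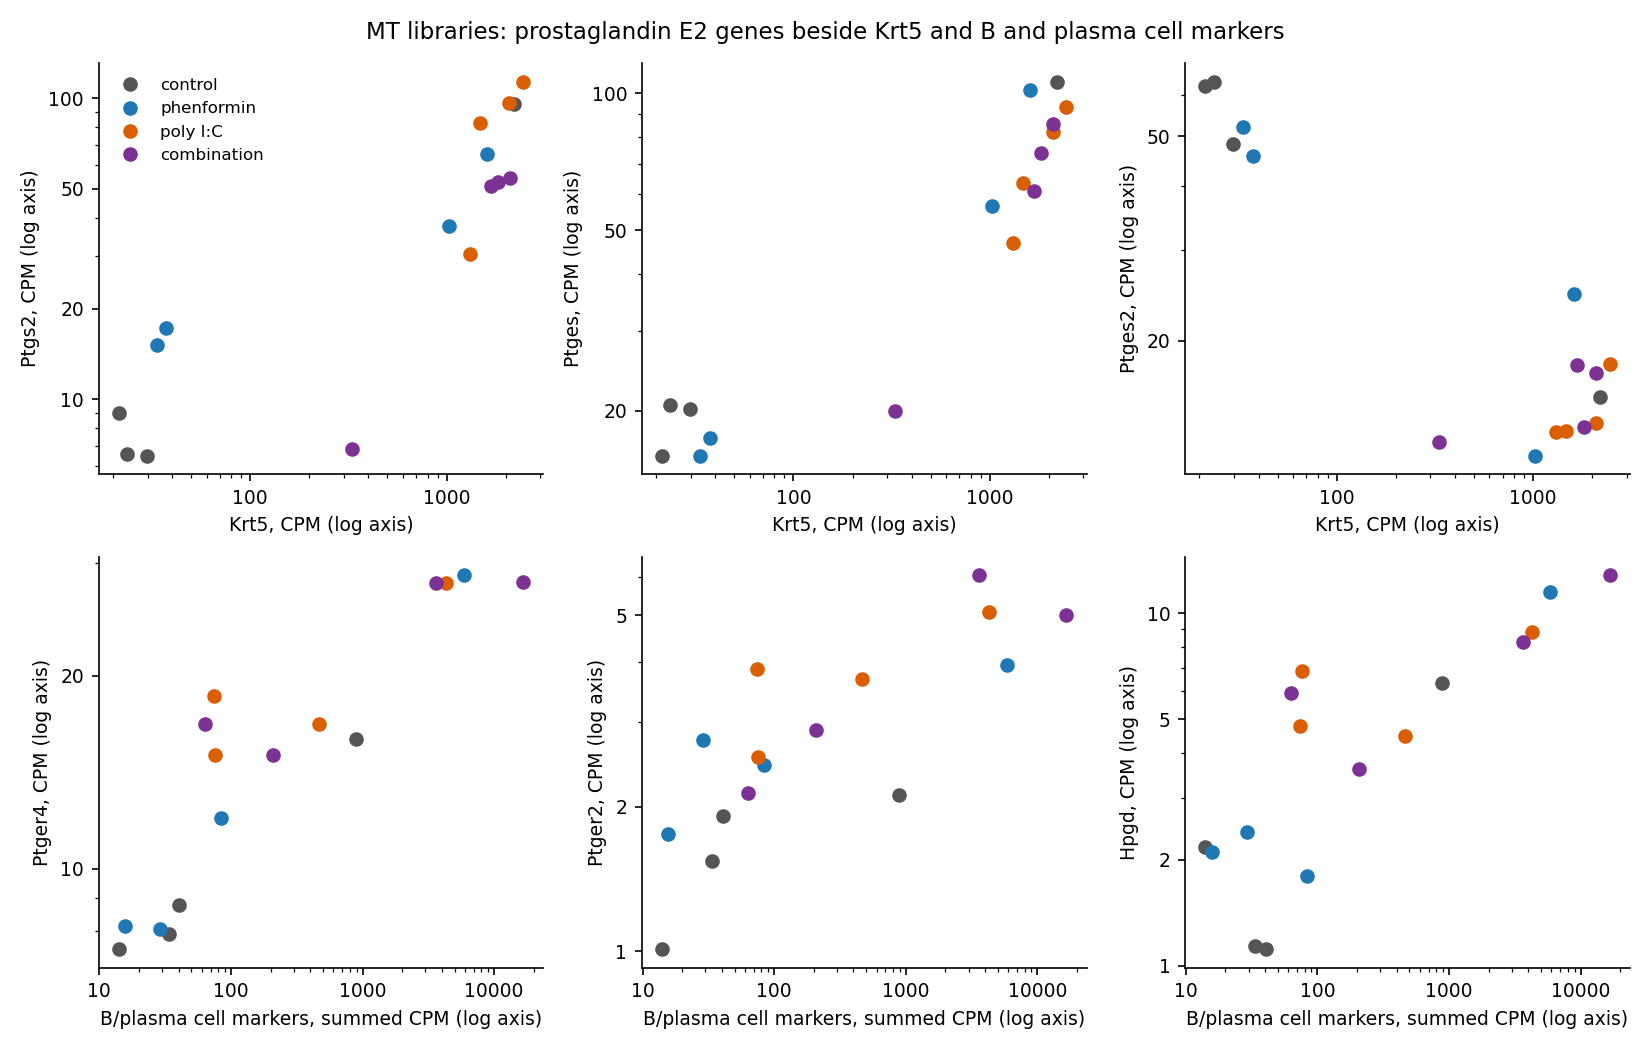
CPM (log axes) of Ptgs2, Ptges and Ptges2 against Krt5, and of Ptger4, Ptger2 and Hpgd against the summed CPM of 9 B and plasma cell markers, in the 16 libraries titled MT, coloured by arm. The 5 libraries with Krt5 below 40 CPM hold the 5 highest Ptges2 levels, and the 4 libraries with the largest B and plasma cell sums hold the 4 highest Ptger4 and Hpgd levels.

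The MT comparison of poly I:C with control called 3 of the 10 genes, where 19.6% of the 17857 genes tested were called. Ptges2 fell, Ptges3 fell and Ptger2 rose. The Ptges2 log2 fold change was -1.69 ± 0.43 (adjusted p = 0.017), with the groups overlapping through control replicate 4. Without the 6 libraries high in Sox10, which leaves 1 control that is assumed to vary like the other libraries, it was -0.06 (adjusted p = 0.958). Leaving out control 2, poly I:C 2 or poly I:C 3 also ended that call, with an adjusted p of 0.0577, 0.0543 and 0.0506 in turn.

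Ptges3 (ENSMUSG00000071072, chromosome 10, 128058954 to 128077272, plus strand) did not follow the split of the MT libraries. It measured 309, 363, 296 and 309 CPM in the controls and 234, 184, 202 and 224 CPM with poly I:C. The groups did not overlap, as for 25.1% of all genes tested. Control replicate 4, the library with high Krt5, was at the level of the other controls. The log2 fold change was -0.58 ± 0.13 (adjusted p = 0.00938), and the call held in all 8 fits with 1 library left out. Without the libraries high in Sox10 the size was nearly kept at -0.53, with 1 control left and an adjusted p = 0.267.

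All 4 receptor genes had positive fold changes with poly I:C in MT, and 1 of them, Ptger2, passed the test. Ptger2 (ENSMUSG00000037759, chromosome 14, 44988195 to 45003820, plus strand) measured 1.01, 1.91, 1.54 and 2.12 CPM in the controls and 2.54, 3.87, 5.07 and 3.69 CPM with poly I:C. All treated libraries were above all controls (log2 fold change 1.23 ± 0.37, adjusted p = 0.0329), at 19 to 97 counts per library over the series. These groups did not overlap for 25.1% of all genes tested. The call was lost in 6 of 8 fits with 1 library left out, those without control replicates 1, 2 or 3 or poly I:C replicates 2, 3 or 4, where the log2 fold change was 1.05 to 1.31 and the adjusted p at most 0.0964. Without the libraries high in Sox10 it was 0.87 (adjusted p = 0.616).

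Ptger4 measured 7.49, 8.77, 7.90 and 15.9 CPM in the MT controls and 15.1, 18.6, 27.9 and 16.8 CPM with poly I:C (0.99 ± 0.41, adjusted p = 0.101). Ptger3, the EP3 gene, gave 0.744, 0.558, 0.402 and 0.976 CPM against 0.762, 2.83, 2.15 and 1.53 CPM (1.46 ± 0.61, adjusted p = 0.1). Ptger1 gave 12.9, 8.69, 11.7 and 32.1 CPM against 26.1, 38.8, 56.0 and 31.0 CPM (1.24 ± 0.50, adjusted p = 0.0905), with the limit on its reads given above. Ptger1 and Ptger4 also split by Krt5 in MT. Ptger1 was at 8.69 to 17.4 CPM in the 5 libraries with low Krt5 and at 20.5 to 78.05 CPM in the other 11. Ptger4 was at 7.49 to 8.77 CPM in those 5 and at 11.99 to 28.7 CPM in the other 11. For both genes control replicate 4 lay within the treated range. Hpgd gave 2.18, 1.12, 1.14 and 6.35 CPM against 6.86, 4.79, 8.85 and 4.48 CPM (1.24 ± 0.68, adjusted p = 0.204). Leaving out control replicate 4 raised the number of members called from 3 to 8, with Ptgs2, Ptges, Ptger1 (1.79), Ptger4 (1.30, adjusted p = 0.033) and Hpgd added, while the share of all genes called rose to 34.5%. Leaving out the libraries high in Sox10 instead gave 0 members and 0% of all genes called, with 0.32 for Ptger4 and 0.27 for Ptger1. The median log2 fold change of the 10 members was 1.11, beside 0.01 for all genes tested.

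Leukocyte and stromal markers also differed between these groups. In the MT poly I:C comparison all 12 macrophage markers were higher (sums of 655 to 833 CPM in the controls and 2152 to 2760 CPM with poly I:C), as were 8 of 9 endothelial markers (126 to 208 and 296 to 471 CPM) and 5 of 11 tested fibroblast markers (753 to 1275 and 1896 to 2336 CPM). None of the macrophage or endothelial markers was at 0 in these groups, and the fibroblast marker Tcf21 was at 0 in all poly I:C libraries. Neutrophil markers were higher for 9 of 11 tested, with Ly6g at 0 in the controls, while their sum ran from 30.4 to 2479 CPM in the controls and from 146 to 424 CPM with poly I:C. S100a8, a calprotectin subunit gene among these markers, made up most of the sum in 3 controls, at 773 to 2436 CPM. In control 4 it was at 4.15 CPM. Control replicate 4, with Ptger1 and Ptger4 within the treated range, had macrophage and fibroblast sums of 808 and 1123 CPM, within the control ranges. Its dendritic cell marker sum, 315 CPM, was within the poly I:C range of 239 to 385 CPM. The part of these cells in the receptor values was not tested.

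The 4 MT libraries with Igkc above 1000 CPM held the highest Ptger4 and Hpgd levels of the model. Ptger4 was at 28.7 (phenformin 4), 27.9 (poly I:C 3) and 27.9 CPM (combination 1 and 4), against at most 18.6 CPM in the other 12. Hpgd was at 11.5, 8.85, 12.8 and 8.30 CPM in these 4 libraries, against at most 6.86 CPM elsewhere in MT. B and plasma cell markers summed to 3623 to 16580 CPM in them. The 9 markers of that list gave no called gene in this comparison. T cell marker sums also ranged widely in the MT arms that hold these libraries. They ran from 76.7 to 1268 CPM with phenformin, 236 to 907 CPM with poly I:C and 271 to 1350 CPM with the combination. Without these 4 libraries the Ptger4 log2 fold change with poly I:C was 0.77 (adjusted p = 0.0611) and that of Ptger2 1.06 (adjusted p = 0.032).

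Phenformin alone gave no called member in MT by edgeR or DESeq2 (0% of all genes called), and 1 member, Ptges3, had an unadjusted p below 0.05. Ptges3 was at 210, 306, 278 and 234 CPM, overlapping the controls through 1 library (-0.30 ± 0.13, adjusted p = 0.813). Ptger2 was at 2.76, 1.75, 2.44 and 3.95 CPM, with 3 of 4 libraries above all controls (0.75 ± 0.37, adjusted p = 0.813). Its fold changes with phenformin were thus of like size in both models, and neither passed.

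For the combination against control in MT, Ptges2 was the 1 member called, lower with a log2 fold change of -1.62 ± 0.43 (adjusted p = 0.0451), where 6.14% of all genes were called. Its combination libraries (12.7 to 17.9 CPM) overlapped the controls through replicate 4, and without the libraries high in Sox10 the log2 fold change was 0.01 (adjusted p = 0.999). The call held in 1 of the 8 fits with 1 library left out, the one without control replicate 4. Ptges3, at 195, 243, 228 and 256 CPM, lay below all controls, with a log2 fold change of -0.47 ± 0.13 (adjusted p = 0.0507). Ptger2, at 5.0, 2.88, 2.13 and 6.06 CPM, lay above all controls (1.30 ± 0.37, adjusted p = 0.0522). The combination and control groups did not overlap for 12.2% of all genes tested. DESeq2 called 5 members and 16.6% of all genes in this comparison: Ptges2 and Ptges3 lower, and Ptger1, Ptger2 and Ptger4 higher.

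The combination gave no called difference from poly I:C alone in MT (0 of 10 members by edgeR and DESeq2, 0 at unadjusted p below 0.05, 0% of all genes called). The Ptgs2 difference was -0.98 ± 0.88 (adjusted p = 0.891), close to its -0.97 in 4T1, with a wider error. Against phenformin no member was called by either tool (0.106% of all genes), with Ptges2 alone at an unadjusted p below 0.05 (-1.13 ± 0.43, adjusted p = 0.31). For the interaction none was called either (0% of all genes, Ptges3 alone below 0.05, 0.41 with an adjusted p = 0.486).

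**Figure D5:**
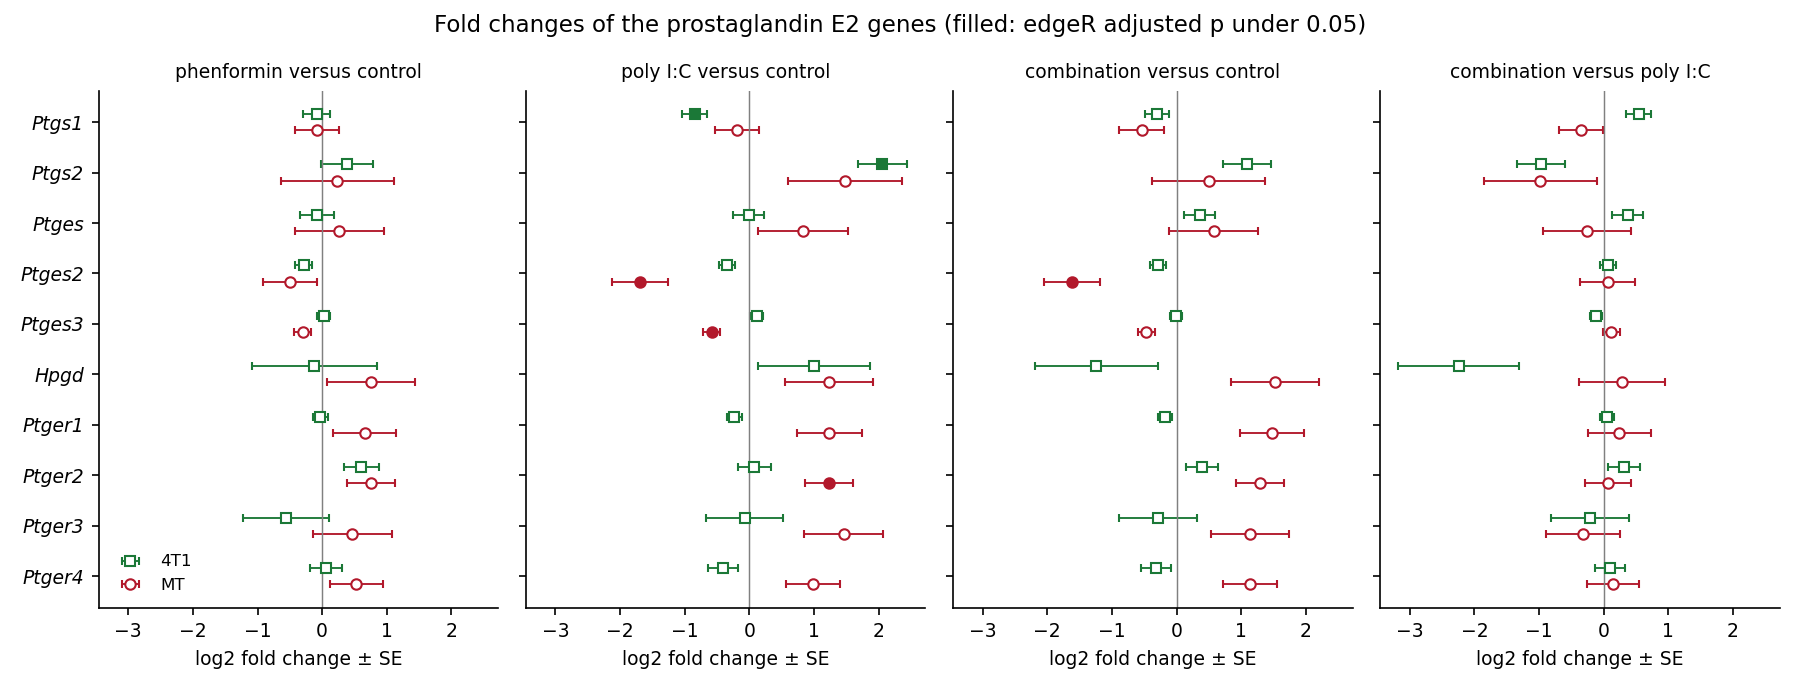
log2 fold changes ± SE of the 10 genes for 4 comparisons in 4T1 (squares) and MT (circles), filled where the edgeR adjusted p was under 0.05. Filled points are Ptgs1 and Ptgs2 for poly I:C in 4T1, and Ptges2, Ptges3 and Ptger2 for poly I:C and Ptges2 for the combination in MT.

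Between the models, 4 of the 10 genes differed in the control arms, where 51.9% of the 18956 genes of the joint fit were called. Ptgs1 was higher in 4T1 (64.8 to 83.7 against 13.9 to 34.1 CPM, log2 difference 1.52 ± 0.29, adjusted p = 0.00012), and so was Ptger1 (65.1 to 69.3 against 8.69 to 32.1 CPM, 2.05 ± 0.38, adjusted p = 7.8e-05). Ptges2 was lower in 4T1 (10.8 to 12.9 against 15.5 to 63.8 CPM, -2.02 ± 0.34, adjusted p = 2.12e-05), and so was Ptges3 (158 to 207 against 296 to 363 CPM, -0.79 ± 0.12, adjusted p = 3.72e-06). For these 4 genes the libraries of both models did not overlap, as for 45.8% of all genes tested. Without the MT libraries high in Sox10 the Ptges2 difference was -0.40 (adjusted p = 0.168), while the calls of the other 3 held.

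Responses to poly I:C were compared in the same joint fit. Ptges3 was the 1 member called (11.1% of all genes were called): it fell in MT and had a log2 fold change of 0.11 ± 0.09 in 4T1, and the responses differed by 0.69 ± 0.16 (4T1 minus MT, adjusted p = 0.00891). The call was lost without the MT libraries high in Sox10 (0.61, adjusted p = 0.12) and without the 4T1 libraries high in Acta1 (0.64, adjusted p = 0.0659). For Ptgs2 the difference of responses was 0.58 ± 0.99 (adjusted p = 0.762), so the rise in 4T1 was not shown to differ from the 1.48 ± 0.89 in MT. Differences for the receptors were -1.47 ± 0.52 (Ptger1), -1.15 ± 0.45 (Ptger2), -1.53 ± 0.88 (Ptger3) and -1.40 ± 0.49 (Ptger4), lower in 4T1 each time, with adjusted p from 0.0667 to 0.272. Responses to phenformin gave no called member by either tool (0% of all genes, 0 members at unadjusted p below 0.05). Responses to the combination gave 0 called by edgeR (4.56% of all genes), 5 at unadjusted p below 0.05, and 4 called by DESeq2 (Ptges2, Ptges3, Ptger1 and Ptger4), which called 11.1% of all genes.

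Beside Ptgs2 lie antisense genes that the files list as 7530420F21Rik and Gm26687, named Ptgs2os and Ptgs2os2 in the annotation and looked at after their values were seen. 7530420F21Rik (chromosome 1, 150074873 to 150099963, minus strand) begins 68 bases before the Ptgs2 start and runs away from it, and Gm26687 (chromosome 1, 150159043 to 150164948, minus strand) ends 50816 bases beyond the Ptgs2 end. Neither overlaps Ptgs2. Gm26687 measured 2.96, 2.78, 1.97 and 2.86 CPM in the 4T1 controls and 7.90, 6.37, 13.2 and 7.31 CPM with poly I:C, all above the controls (1.74 ± 0.32, adjusted p = 0.0107), and the call held in all 8 fits with 1 library left out. Without the 4T1 libraries high in Acta1 it was 1.54 (adjusted p = 0.147). In MT it measured 0.319, 0.0797, 0.603 and 1.47 CPM in the controls and 2.48, 3.17, 1.92 and 2.21 CPM with poly I:C (2.02 ± 0.64, adjusted p = 0.041). That call held in 1 of 8 such fits, and without the libraries high in Sox10 the value was 0.77 (adjusted p = 0.776). 7530420F21Rik was at 4.99 to 8.11 CPM in the 4T1 poly I:C libraries and 3.77 to 4.79 CPM in the controls, but missed the threshold (0.70 ± 0.24, adjusted p = 0.0937). It was higher in 4T1 than in MT controls (0.0670 to 0.570 CPM, log2 difference 4.21 ± 0.60, adjusted p = 2.31e-06).

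Counts for the other genes of the pathway stand beside 6.32% of all genes called with poly I:C in 4T1 and 19.6% in MT. Without the 6 MT libraries high in Sox10, 1 control is left, so whether a gene passes there cannot decide a question. Sizes in that fit shrank for some of the MT genes named here and were largely kept for others. Upstream of the cyclooxygenases, phospholipases and related lipases release arachidonic acid. In 4T1 poly I:C, 0 of the 12 tested genes of that list were called by edgeR (3 at unadjusted p below 0.05, 1 called by DESeq2). The smallest p was that of Daglb, a diacylglycerol lipase (18.6 ± 2.59 to 12.4 ± 0.681 CPM, -0.56 ± 0.16, adjusted p = 0.0552). In MT poly I:C, 1 of 13 rose and 2 fell: Daglb rose (11.2 ± 1.09 to 18.9 ± 1.32 CPM, 0.78 ± 0.16, adjusted p = 0.0069), while the phospholipases Pla2g12a (44.4 ± 17.0 to 12.04 ± 0.697 CPM, -1.87 ± 0.37) and Pla2g4b (-0.47 ± 0.16) fell. The Pla2g4b call held in 1 of 8 fits with 1 library left out, the one without control replicate 4. The Pla2g12a value was -0.70 without the libraries high in Sox10. That of Daglb in MT was at least 0.727 in all 16 alternatives run, that one included.

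Genes that carry or break down prostaglandins gave 0 of 7 called in 4T1 poly I:C (1 at unadjusted p below 0.05, 0 by DESeq2) and 3 of 7 in MT. There Cbr3, a carbonyl reductase, rose (1.84 ± 0.46), as did Abcc4, a transporter that exports prostaglandins (0.45 ± 0.13), and Zadh2, a prostaglandin reductase, fell (-0.87 ± 0.21). Leaving out control 1 or 3 or poly I:C 2, 3 or 4 ended the Abcc4 call, and leaving out control 2 that of Cbr3 (adjusted p = 0.0571). Without the libraries high in Sox10, Zadh2 was at -0.20 (adjusted p = 0.779) and Cbr3 at 0.74 (adjusted p = 0.437). Of the other prostanoid synthases, Hpgds, which makes prostaglandin D2, fell in 4T1 (28.6 ± 5.77 to 12.5 ± 4.98 CPM, -1.17 ± 0.28, adjusted p = 0.0287, 1 of 6 tested) and rose in MT (4.96 ± 1.02 to 16.9 ± 2.95 CPM, 1.79 ± 0.39, adjusted p = 0.00762). Tbxas1, the thromboxane synthase, also rose in MT (1.52 ± 0.29, 2 of 5 tested). In all 16 MT alternatives, with that leaving out the libraries high in Sox10, Hpgds rose by at least 1.441 and Tbxas1 by at least 1.361. Macrophage marker sums, given above, were lower in the same 4T1 comparison and higher in the same MT comparison. Leaving out control 2 or 3 or poly I:C 1 or 2 ended the Hpgds call in 4T1 (adjusted p of 0.063 to 0.0823). Of the other prostanoid receptors, 0 of 5 tested were called by edgeR in either model (0 at unadjusted p below 0.05 in 4T1 and 1 in MT, and 0 and 1 called by DESeq2).

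The lipoxygenase and leukotriene branch, which competes for arachidonic acid, gave 1 of 11 tested genes lower in 4T1 poly I:C, Alox15 (2.13 ± 1.73 to 0.237 ± 0.219 CPM, -3.14 ± 0.75, adjusted p = 0.0283, with overlapping groups), a call that held in 4 of 8 fits with 1 library left out. In MT 5 of 13 rose and 1 fell. The receptors Cysltr2 (1.77 ± 0.30) and Cysltr1 (1.70 ± 0.30) rose, and Gpx4, a peroxidase that reduces lipid peroxides, fell (-1.10 ± 0.17, adjusted p = 0.00193, and -0.68 without the libraries high in Sox10). In all 16 MT alternatives, that one included, Cysltr2 rose by at least 1.579 and Cysltr1 by at least 1.532.

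Cyclic AMP-responsive genes, which EP2 and EP4 can drive, gave 1 of 16 called in 4T1 poly I:C, the phosphodiesterase Pde4a (-0.58 ± 0.16, adjusted p = 0.0449), a call that held in 2 of 8 fits with 1 library left out. In MT 3 rose and 1 fell. The inducible transcription factor genes Nr4a3 (1.64 ± 0.36) and Fosb (1.81 ± 0.41) rose, and Nr4a1 of the same kind fell (-1.70 ± 0.41). The Nr4a1 value was -0.37 without the libraries high in Sox10. In all 16 MT alternatives, that one included, Nr4a3 rose by at least 1.155 and Fosb by at least 1.327. Among 17 inducers and signal carriers of Ptgs2, Il6 (1.26 ± 0.46 to 7.79 ± 4.56 CPM, with overlapping groups, 2.63 ± 0.51, adjusted p = 0.0128) and Il1a (2.15 ± 0.58, adjusted p = 0.0419) rose in 4T1. The Il1a call held in 1 of 8 fits with 1 library left out, without poly I:C replicate 4, and that of Il6 in all 8. Without the libraries high in Acta1 or in Igkc the Il6 value was 2.26 and 2.29 (adjusted p = 0.195 and 0.0768). In MT 3 of these 17 genes rose and 1 fell: the receptor Il1r1 (1.73 ± 0.43) and the cytokine gene Il1b (1.54 ± 0.46) rose, and Cebpb, a C/EBP family factor, fell (249 ± 73.8 to 87.6 ± 25.9 CPM, -1.50 ± 0.42, adjusted p = 0.0244). The Cebpb call held in 2 of 8 fits with 1 library left out (those without control 4 or poly I:C 1), and the Il1b call in 3 of 8, those without control 4, poly I:C 1 or poly I:C 4. Leaving out control 2 ended the Il1r1 call (adjusted p = 0.0571). Without the libraries high in Sox10, Cebpb was at -0.76 (adjusted p = 0.664) and Il1r1 at 0.68 (adjusted p = 0.345).

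The genes with patterns most like those of Ptgs2, Ptges and Hpgd were ranked by the smaller of their Spearman correlations of log2 CPM over the 15 libraries titled 4T1 and the 16 titled MT, among 13622 genes whose mean log2 CPM reached 1 in each model. The libraries of a model share its arms and tissue makeup, so these values are descriptions. Nearest to Ptgs2 were Abcc1, an export pump (0.925 in 4T1 and 0.888 in MT), the enolase Eno2 (0.868 and 0.90), Pi15 (0.864 and 0.874), the tropomyosin Tpm4 (0.857 and 0.871) and Gm12868 (0.886 and 0.853). Nearest to Ptges were Syt8 (0.771 and 0.797), the galectin Lgals3 (0.739 and 0.856), Sectm1b (0.736 and 0.762), St5 (0.679 and 0.715) and Ndrg1 (0.650 and 0.847). Hpgd, itself below that average in 4T1, was nearest to Rasgrp2 (0.864 and 0.891), L3mbtl3 (0.871 and 0.850), the leukocyte tetraspanin Cd37 (0.832 and 0.879), Cygb (0.83 and 0.891) and the lymphocyte factor Lef1 (0.836 and 0.818).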

How the data were processed

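The deposited table holds raw counts per gene for 31 libraries. Per the submitters' processing notes, the authors' tools were Trimmomatic 0.32.48, STAR 2.3.0 and featureCounts 1.4.4, with the mm10/GRCm38 build. The strand setting and annotation release are not given in the sources used here. Libraries were strand-specific and polyA-selected, per the labels' protocols. The counts were fitted with edgeR 4.0.16 (R 4.3.3, limma 3.58.1): filterByExpr with a minimum count of 10 and total of 15, TMM scaling, the quasi-likelihood test, and Benjamini-Hochberg adjustment over all genes tested, with a call at an adjusted p below 0.05. Each model was fitted alone (17445 and 17857 genes), and both jointly (18956 genes) for differences between models. Every adjusted p is from edgeR unless DESeq2 (1.42.0) is named. The SE of a log2 fold change was taken from its size and the F statistic (size over root F). The fit was tested on simulated data. All 10 members are named, and up to 3 called genes of each other list, by smallest p (the smallest p where none was called). Positions are from GENCODE on GRCm38. The rule for the members uses names alone, but the members and lists were chosen with earlier results of these data known. Alternatives covered tools, scaling, filters, a replicate block and left-out libraries. Counts limit the precision of low genes: 3 counts equal 0.156 to 0.244 CPM.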

Additional observations from a re-analysis of the deposited data

Results flagged for a closer look

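In 7 of the 70 gene and group combinations with 4 libraries, 1 library stood far from the other 3 by Dixon's test, and chance marks about 1 in 20. All 7 were in MT. Ptgs2 in control replicate 4 (95.7 CPM), Ptges in control replicate 4 (106 CPM) and Ptger4 in control replicate 4 (15.95 CPM) were above the other controls. In the combination arm, replicate 1 was low for Ptgs2 (6.83 CPM) and high for Ptger1 (78.05 CPM). Hpgd was high in phenformin replicate 4 (11.5 CPM), and Ptges2 was high in poly I:C replicate 1 (18.0 CPM), inside the range of the other MT libraries. Control replicate 4 is the 1 control with low Sox10, and combination replicate 1 and phenformin replicate 4 have Igkc above 1000 CPM; the part of these states was not tested.

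The Ptges3 response to poly I:C differed between the models by 0.69 on the log2 scale (4T1 minus MT, edgeR adjusted p = 0.00891). It was higher in 4 of 4 MT controls than in all MT poly I:C libraries, and overlapped between the arms in 4T1. In that MT comparison the groups did not overlap for 25.1% of all genes tested.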

How the results depend on the processing

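Over the alternatives run on 40 results of single members, 682 values kept their direction and side of the threshold, 36 passed it newly, 34 no longer passed it and 4 reversed. Results that were not called and stayed so count as kept, whatever their change in size. The 4T1 interaction of Ptgs2 is such a case, at -1.35 with all libraries and -0.28 without those high in Acta1. The 4 reversed values were all Ptges2 without the MT libraries high in Sox10: 0.009 (combination against control), 0.34 (combination against phenformin), -0.314 (difference of poly I:C responses) and -0.321 (difference of combination responses). The alternatives leaving out libraries by Sox10, Igkc or Acta1 were chosen after seeing the data; the first leaves 1 MT control and 1 MT phenformin library, assumed to vary like the others. The cause of these changes was not tested. Fewer samples enter in the alternatives that leave out libraries.

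For poly I:C in 4T1 (2 members called), 1 was called with only the groups compared, 0 without the libraries high in Acta1, 0 without those high in Igkc, and 1 to 2 with 1 library left out. For the combination against poly I:C in 4T1 (0 called), leaving out 1 library gave 0 to 2. For poly I:C in MT (3 called), 5 were called with only the groups compared, 0 without the libraries high in Sox10, and 1 to 8 with 1 library left out, 8 without control replicate 4 (34.5% of all genes) and 1 without control 2, poly I:C 2 or poly I:C 3. For the combination against control in MT (1 called), DESeq2 called 5. In the same comparison 0 were called with no filter, with only the groups compared, with the replicate block, and without the libraries high in Sox10 or Igkc. Leaving out 1 library gave 0 to 7, 7 without control replicate 4 (29.7% of all genes). For the difference of poly I:C responses (1 called), DESeq2 called 4 (15.6% of all genes), the replicate block 2, and 4 were called without the MT libraries high in Igkc. It was 0 without those high in Sox10 or, in 4T1, Acta1, and 1 to 6 with 1 library left out, 6 without MT control replicate 4 (23.5% of all genes) and 2 without 4T1 poly I:C replicate 1. For the difference of combination responses (0 called), DESeq2 called 4, and leaving out 1 library gave 0 to 4, 4 without MT control replicate 4 (23.7% of all genes).

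The libraries share replicate numbers but no stated pairing. Correlations of the deviations of same-numbered libraries ran from -0.507 to 0.208 in 4T1 (6 of 21 above 0.1) and from -0.806 to 0.781 in MT (12 of 24), and 1 of 15 and 7 of 16 libraries correlated best with their own number. With the replicate block, counts of members called moved by over 1.5 times for the combination in MT (0) and the difference of poly I:C responses (2). Depth limits Ptger3, and Hpgd in 4T1, most.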
